A study of Mus musculus with 6 samples.

Results

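A set of 8 genes for phosphatases that switch off MAP kinases was followed here, chosen by name from the deposited table of 23207 gene symbols: Dusp1, Dusp2, Dusp4, Dusp5, Dusp6, Dusp8, Dusp10 and Dusp16. All 8 were found, and all 8 passed the expression filter that left 19745 genes for testing. Endothelial cells of the spleen were sequenced from 6 mice, 1 library each, and all 6 mice were Apoe knockouts on a high cholesterol diet. An antisense oligonucleotide (ASO) base-pairs with the RNA that it targets and has it degraded or blocked. For 8 weeks, 3 mice (1601, 1602 and 1608) were given a control ASO. The other 3 mice (1603, 1604 and 1607), labelled Mlkl KD, were given an ASO against Mlkl, the membrane-rupturing effector of necroptosis. The sources used here state neither the age of the mice nor how the endothelial cells were isolated.

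MAP kinases (ERK, JNK and p38) are switched on by phosphorylation of a threonine and a tyrosine in their activation loop. The dual specificity phosphatases of this family remove both phosphates, and many of their genes are transcribed in response to the very kinases that they inactivate, which makes them a negative feedback. Dusp1, Dusp2, Dusp4 and Dusp5 encode nuclear enzymes made quickly after a stimulus, Dusp6 encodes a cytoplasmic enzyme for ERK, and Dusp8, Dusp10 and Dusp16 encode enzymes that act mainly on JNK and p38. In endothelium, Dusp1 is known to be induced by growth factors and blood flow and to restrain inflammatory p38 and JNK signalling.

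Library totals were 59988846 to 87776706 estimated counts, and levels are given as CPM, counts scaled to a common library total, after TMM scaling. The targeted gene Mlkl measured 30.7, 31.2 and 38.03 CPM in mice 1601, 1602 and 1608 and 7.53, 5.81 and 3.74 CPM in mice 1603, 1604 and 1607. All 12 endothelial markers examined were measured, with a sum of 3178 to 5865 CPM with the control ASO and 3967 to 4491 CPM with the MLKL ASO. Among them, Pecam1, a junctional adhesion molecule, measured 331 ± 51.6 and 362 ± 46.1 CPM, and Cdh5, the cadherin of endothelial junctions, 166 ± 65.4 and 162 ± 12.5 CPM (SD, n = 3 each). Markers of B, T and NK cells, plasma cells, macrophages, dendritic cells, neutrophils, erythroid cells, megakaryocytes and fibroblasts were all detected too, with none at 0 in every library. Control mouse 1608 stood apart on the first principal component of log2 CPM, with a coordinate of 92.0. Control mice 1601 and 1602 had -4.96 and 16.3, and mice 1603, 1604 and 1607 had -27.9, -44.25 and -31.2. Every control mouse thus lay above every MLKL ASO mouse on this component too. Phosphatase results that differ by over 1.5 times without mouse 1608 are given without it too. In bulk RNA, fewer cells of a type and less RNA per cell cannot be told apart.

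The 4 nuclear, rapidly inducible phosphatases measured lower on average in MLKL ASO mice, Dusp6 was at nearly the same level in both groups, and the JNK and p38 phosphatases were split, with Dusp8 and Dusp16 higher and Dusp10 lower. Groups did not overlap for Dusp1, Dusp4 and Dusp5 (lower, 3 of 8 genes, against 9.71% of all genes tested) and for Dusp16 (higher, 1 of 8, against 9.02%). None of the 8 passed the threshold of 0.05 in edgeR's quasi-likelihood test adjusted over all genes (0 of 8, where 0.00506% of genes passed as lower and 0.00506% as higher). At an unadjusted p under 0.05 the same test had 3 of 8 lower, against 6.96% of all genes, and 1 of 8 higher, against 4.89%. Over both directions these were 4 of 8, against 2339 of 19745 genes. Without mouse 1608 the count was 7, against 3174 of 20898 genes, and without mouse 1604 it was 2, against 1458 of 20815. With the lymphocyte marker covariate it was 1, against 2847 of 19745 genes. DESeq2 and limma-voom with sample weights each had 6 of 8 at an unadjusted p under 0.05, against 2895 and 3497 of 19745 genes. At the adjusted threshold DESeq2 placed 1 of 8 as lower, which was Dusp1, against 1.48% of genes, and 0 of 8 as higher, against 1.14%. There limma-voom with sample weights placed 0 of 8. The log2 fold change was below 0 in 6 of 8 members, against 51.2% of all genes. Its median over the 8 was -0.43, against -0.0092 over all genes, and -0.28 without mouse 1601. With the level of lymphocyte markers as a covariate, 3 of 8 were below 0 and the median was 0.28, as described further on.

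**Figure D1:**
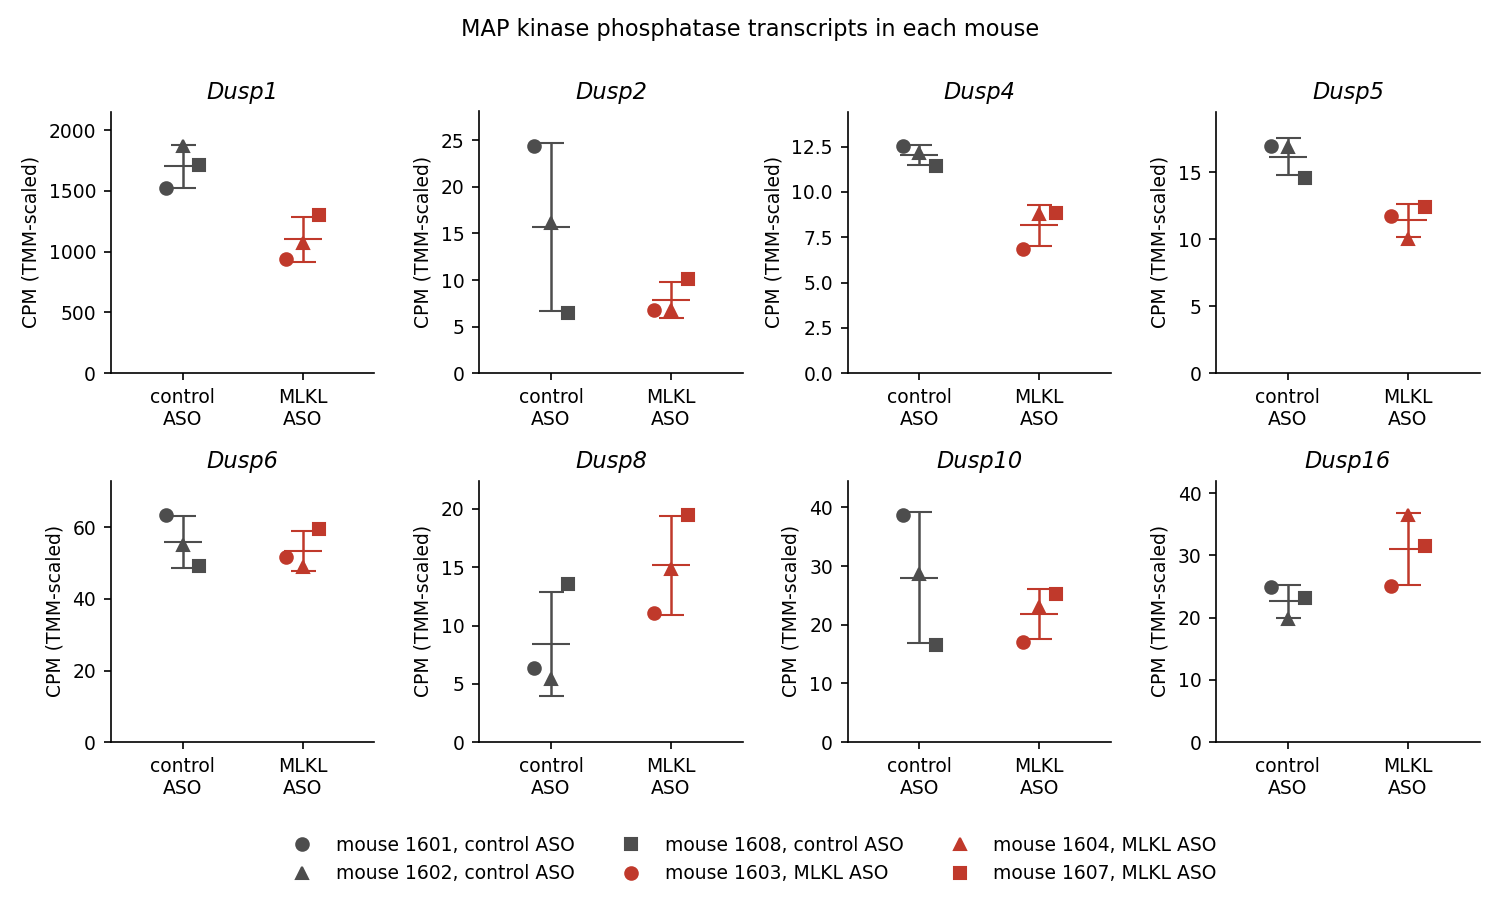
CPM of each phosphatase (vertical axis, from 0) in the 3 control ASO and 3 MLKL ASO mice, 1 point per mouse, with horizontal lines at the mean and bars of 1 SD. The groups are separate for Dusp1, Dusp4, Dusp5 and Dusp16, and control mouse 1608 lies within the range of the MLKL ASO mice, or just below it, for Dusp2, Dusp6, Dusp8 and Dusp10.

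The sequences just before the transcription start are shown for 4 members, a pair measured lower that held a cyclic AMP response element or CArG boxes (Dusp1 and Dusp5) and the pair measured higher (Dusp8 and Dusp16). They come from RefSeq on build GRCm38.p6, in which 7 of the 8 members were matched. The sources used here do not state the build behind the deposited counts. Each run holds 250 bases ending at the base before the annotated start, read 5′ to 3′ along the gene. Capitals mark the cyclic AMP response element TGACGTCA, to which CREB and ATF proteins bind, its half-site TGACG on either strand, and the CArG box, to which serum response factor binds. The motifs were chosen with the sequences in view.
Dusp1 (chr17:26508473-26508722, minus strand): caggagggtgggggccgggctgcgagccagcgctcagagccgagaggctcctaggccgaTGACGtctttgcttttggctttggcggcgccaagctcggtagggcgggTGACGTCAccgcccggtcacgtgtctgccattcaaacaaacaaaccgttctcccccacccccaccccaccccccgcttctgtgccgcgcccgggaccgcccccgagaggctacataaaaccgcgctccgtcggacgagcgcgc
Dusp5 (chr19:53528895-53529144, plus strand): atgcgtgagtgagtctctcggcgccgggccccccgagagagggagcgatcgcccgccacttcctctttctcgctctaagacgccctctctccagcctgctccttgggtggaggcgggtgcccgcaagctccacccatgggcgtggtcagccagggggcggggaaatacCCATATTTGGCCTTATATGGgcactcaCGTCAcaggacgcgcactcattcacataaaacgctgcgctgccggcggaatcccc
Dusp8 (chr7:142095285-142095534, minus strand): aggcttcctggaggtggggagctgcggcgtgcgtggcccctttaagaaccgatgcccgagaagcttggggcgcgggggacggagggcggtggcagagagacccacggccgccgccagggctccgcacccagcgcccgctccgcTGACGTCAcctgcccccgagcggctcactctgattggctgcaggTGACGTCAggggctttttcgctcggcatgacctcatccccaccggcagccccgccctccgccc
Dusp16 (chr6:134792629-134792878, minus strand): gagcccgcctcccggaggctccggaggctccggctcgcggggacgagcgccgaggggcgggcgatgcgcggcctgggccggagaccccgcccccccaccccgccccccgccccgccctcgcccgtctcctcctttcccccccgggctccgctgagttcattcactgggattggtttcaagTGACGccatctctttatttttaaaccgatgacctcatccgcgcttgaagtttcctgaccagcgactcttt

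A full TGACGTCA stood in the windows of 2 of the 7 members, Dusp1 and Dusp8, which lay on opposite sides of 0 between the groups. Dusp1 held 1, beginning 143 bases before the start, with a further half-site at 191 bases. Dusp8 held 2, beginning 107 and 63 bases before the start. Of all 32851 windows of 250 bases in the RefSeq table, 1.55% held at least 1 TGACGTCA and 0.0304% at least 2. The bases G and C made up 68.4% of the Dusp1 window and 71.6% of the Dusp8 window, against a median of 52.4% over all windows. Shares among windows of like composition were not counted. Dusp5 held 2 CArG boxes side by side, beginning 82 and 72 bases before the start, and a half-site at 55 bases. At least 1 CArG box stood in 1.47% of all windows and at least 2 in 0.0183%. Dusp16 held a single half-site, at 70 bases, and a half-site on either strand, alone or inside a full element, stood in 17.8% of windows. The AP-1 motif TGANTCA was in none of the 7 members' windows (0) and in 6.75% of all windows. The letters CACGTG, an E-box, stood in Dusp1 and Dusp2 and in 6.02% of all windows, and the ETS motif CGGAAG stood in Dusp6 and in 13.6%, both counted on either strand.

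Dusp1, which acts on p38, JNK and ERK in the nucleus, was the most abundant member per length. Mice 1601, 1602 and 1608 of the control ASO group had 1520, 1872 and 1712 CPM. Mice 1603, 1604 and 1607 of the MLKL ASO group had 936, 1068 and 1303 CPM. Every control mouse lay above every MLKL ASO mouse. The means were 1701 ± 177 CPM (SD, n = 3) and 1102 ± 186 CPM (SD, n = 3), so that MLKL ASO mice had 64.8% of the control level. In edgeR, the log2 fold change was -0.63 (SE 0.15, adjusted p = 0.305). An exact permutation test (two-sided) gave p = 0.1, the lowest value possible with 3 mice in each group. DESeq2 gave a log2 fold change of -0.62 and an adjusted p of 0.0402, whereas the authors' deposited table lists -0.59 and an adjusted p of 0.0984. Leaving out each mouse in turn moved the edgeR log2 fold change between -0.77 and -0.53, and the lymphocyte marker covariate gave -0.72.

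Dusp4, a nuclear phosphatase of ERK and JNK, had 12.6, 12.1 and 11.4 CPM in control mice 1601, 1602 and 1608 and 6.85, 8.77 and 8.83 CPM in mice 1603, 1604 and 1607. The control mice were tightly grouped and lay wholly above the others. Means were 12.04 ± 0.566 CPM (SD, n = 3) and 8.15 ± 1.13 CPM (SD, n = 3). The edgeR log2 fold change was -0.56 (SE 0.17, adjusted p = 0.349, DESeq2 adjusted p = 0.0624). Dusp5, a nuclear phosphatase specific to ERK, followed the same order of groups. It had 17.0, 16.9 and 14.5 CPM in the control mice and 11.8, 10.01 and 12.4 CPM in the MLKL ASO mice, in the same order of mouse number as for Dusp4. Means were 16.1 ± 1.39 CPM (SD, n = 3) and 11.4 ± 1.25 CPM (SD, n = 3). In edgeR, the log2 fold change was -0.50 (SE 0.16, adjusted p = 0.353, DESeq2 adjusted p = 0.0844). Both genes stayed below 0 whichever mouse was left out, at -0.63 to -0.46 for Dusp4 and -0.57 to -0.42 for Dusp5.

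Dusp2, a nuclear phosphatase abundant in activated lymphocytes, differed most among the control mice. Mice 1601, 1602 and 1608 had 24.4, 16.1 and 6.41 CPM, and mice 1603, 1604 and 1607 had 6.74, 6.73 and 10.1 CPM. Control mouse 1608 was the lowest of all 6, so the groups overlapped. Means were 15.7 ± 9.02 CPM (SD, n = 3) and 7.87 ± 1.97 CPM (SD, n = 3). The edgeR log2 fold change was -0.99 (SE 0.45, adjusted p = 0.442). Without mouse 1601 the log2 fold change was -0.53, and without mouse 1608 it was -1.36 (edgeR adjusted p = 0.128).

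Dusp6, the cytoplasmic phosphatase of ERK, varied least of the 8 across mice, with the highest mouse at 1.298 times the lowest. It had 63.5, 55.0 and 49.1 CPM in mice 1601, 1602 and 1608 and 51.7, 48.9 and 59.5 CPM in mice 1603, 1604 and 1607, and the groups overlapped almost completely. Means were 55.9 ± 7.25 CPM (SD, n = 3) and 53.4 ± 5.50 CPM (SD, n = 3). In edgeR, the log2 fold change was -0.066 (SE 0.14, adjusted p = 0.893), and it was 0.020 without mouse 1601, -0.15 without mouse 1608 and 0.22 with the lymphocyte marker covariate.

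Dusp8, a JNK and p38 phosphatase best known from brain and heart, had the largest log2 fold change above 0 of the 8. Control mice 1601, 1602 and 1608 had 6.37, 5.42 and 13.5 CPM, and mice 1603, 1604 and 1607 had 11.1, 14.9 and 19.5 CPM. Mouse 1608 lay above mouse 1603, so the groups overlapped by that 1 control mouse. Means were 8.45 ± 4.44 CPM (SD, n = 3) and 15.2 ± 4.22 CPM (SD, n = 3). The edgeR log2 fold change was 0.85 (SE 0.38, adjusted p = 0.441). Without mouse 1608 it was 1.36 (edgeR adjusted p = 0.134), and with the lymphocyte marker covariate it was 0.40.

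Dusp16, a phosphatase that acts mainly on JNK, had 24.9, 19.7 and 23.2 CPM in control mice 1601, 1602 and 1608 and 25.1, 36.5 and 31.5 CPM in mice 1603, 1604 and 1607. The groups did not overlap, but mouse 1603 was barely above mouse 1601. Means were 22.6 ± 2.65 CPM (SD, n = 3) and 31.1 ± 5.74 CPM (SD, n = 3). In edgeR, the log2 fold change was 0.46 (SE 0.18, adjusted p = 0.389). Without mouse 1604 the log2 fold change was 0.31. Dusp10, which dephosphorylates JNK and p38 and restrains lymphocyte and macrophage responses, did not share this direction. It had 38.8, 28.7 and 16.6 CPM in the control mice and 17.1, 23.0 and 25.3 CPM in the MLKL ASO mice. As for Dusp2, mouse 1601 was the highest and mouse 1608 the lowest of all 6. Means were 28.0 ± 11.1 CPM (SD, n = 3) and 21.8 ± 4.24 CPM (SD, n = 3). The edgeR log2 fold change was -0.36 (SE 0.31, adjusted p = 0.681), and leaving out mouse 1601, 1603 or 1608 gave -0.071, -0.22 or -0.63.

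**Figure D2:**
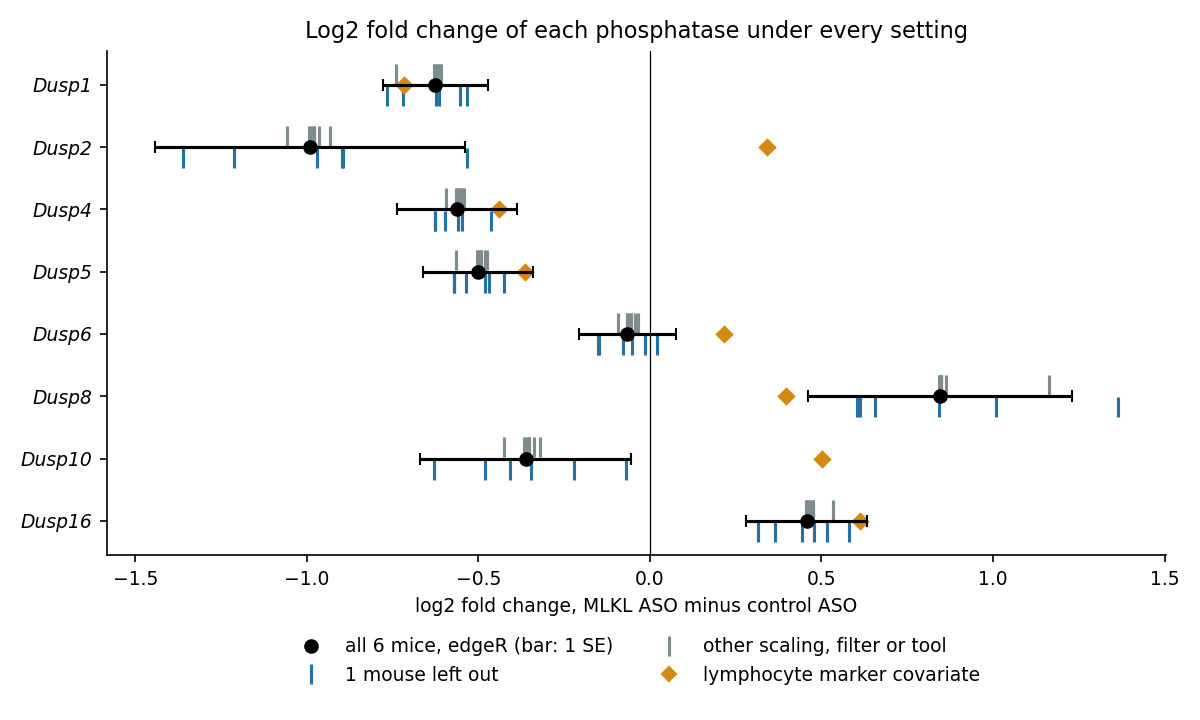
Log2 fold change of each phosphatase, MLKL ASO minus control ASO (horizontal axis), from edgeR on all 6 mice (points with bars of 1 standard error), with 1 mouse left out, with other scalings, filters or tools, and with the lymphocyte marker covariate. Dusp1, Dusp4 and Dusp5 stay below 0 and Dusp8 and Dusp16 above 0 throughout, while Dusp2, Dusp6 and Dusp10 cross 0 under the covariate, Dusp6 also without mouse 1601.

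In the authors' deposited table, whose positive log2 fold changes mean higher in MLKL ASO mice, 0 of the 8 members passed an adjusted p of 0.05, where 0.941% of its rows with a single gene symbol passed as lower and 0.879% as higher. It lists log2 fold changes of -0.52 for Dusp4, -0.46 for Dusp5, -0.89 for Dusp2, 0.89 for Dusp8 and 0.49 for Dusp16. The signs in the authors' deposited table match those of edgeR here for all 8 genes, and both rest on the same libraries.

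Levels can be set side by side between genes only per length, for which the longest coding transcript of each gene in GENCODE M21 was used. In control mice Dusp1 had 855 CPM per kilobase, Dusp6 19.98, Dusp10 10.03, Dusp2 9.68, Dusp5 6.53, Dusp16 4.43, Dusp4 4.40 and Dusp8 1.76. Dusp1 and Dusp6 were first and second in each of the 6 mice. Below them, over the control mice, some neighbours in the order overlapped and others did not. Dusp5, at 5.88 to 6.87 CPM per kilobase, lay above Dusp16, at 3.87 to 4.89, which overlapped Dusp4, at 4.17 to 4.58. Dusp2 ranged from 3.97 to 15.1 CPM per kilobase over the control mice, across the means of Dusp10, Dusp5, Dusp16 and Dusp4. Dusp8 was lowest in all 3 control mice, whereas in MLKL ASO mice, at 2.31 to 4.06 CPM per kilobase, it overlapped Dusp4 (2.50 to 3.22). These transcripts also differ in AUUUA, the core of the AU-rich elements that shorten the life of many induced mRNAs. Dusp1 held 4 in 690 bases after its stop codon and Dusp2 held 4 in 581, or 5.797 and 6.885 per kilobase, above 95.8% and 97.5% of 17757 genes with at least 200 such bases. Dusp5 and Dusp6 each held 1, or 0.902 and 0.841 per kilobase, below the median of 1.501 over all genes. High and low densities both occurred among the members measured lower.

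Ratios of counts within a library do not depend on how libraries are scaled. Relative to Dusp1, the log2 ratio of Dusp16 averaged 1.08 higher in MLKL ASO than in control mice, with values of -5.93, -6.57 and -6.21 in mice 1601, 1602 and 1608 and -5.22, -4.87 and -5.37 in mice 1603, 1604 and 1607. The corresponding difference was 1.56 for Dusp8 and 0.57 for Dusp6, and in these ratios too the groups did not overlap. By contrast, the ratios of Dusp4 and Dusp5 to Dusp1 differed by 0.063 and 0.13 and overlapped. Those of Dusp10 and Dusp2 overlapped too, with differences of 0.34 and -0.18. Each of these ratios includes the difference in Dusp1 itself, which was at 64.8% of the control level without overlap. For Dusp6, whose own log2 fold change was -0.066, the difference in the ratio was mostly that of Dusp1. The share of all genes with separate ratios to Dusp1 was not counted. Dusp1, Dusp4 and Dusp5 were also the 3 most alike among the 8 across mice. After each gene was centred on its mean over the 6 mice, the root mean square difference of log2 CPM was 0.14 between Dusp1 and Dusp4, 0.18 between Dusp4 and Dusp5 and 0.19 between Dusp1 and Dusp5. Dusp2 and Dusp8 were the least alike, at 1.29.

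**Figure D3:**
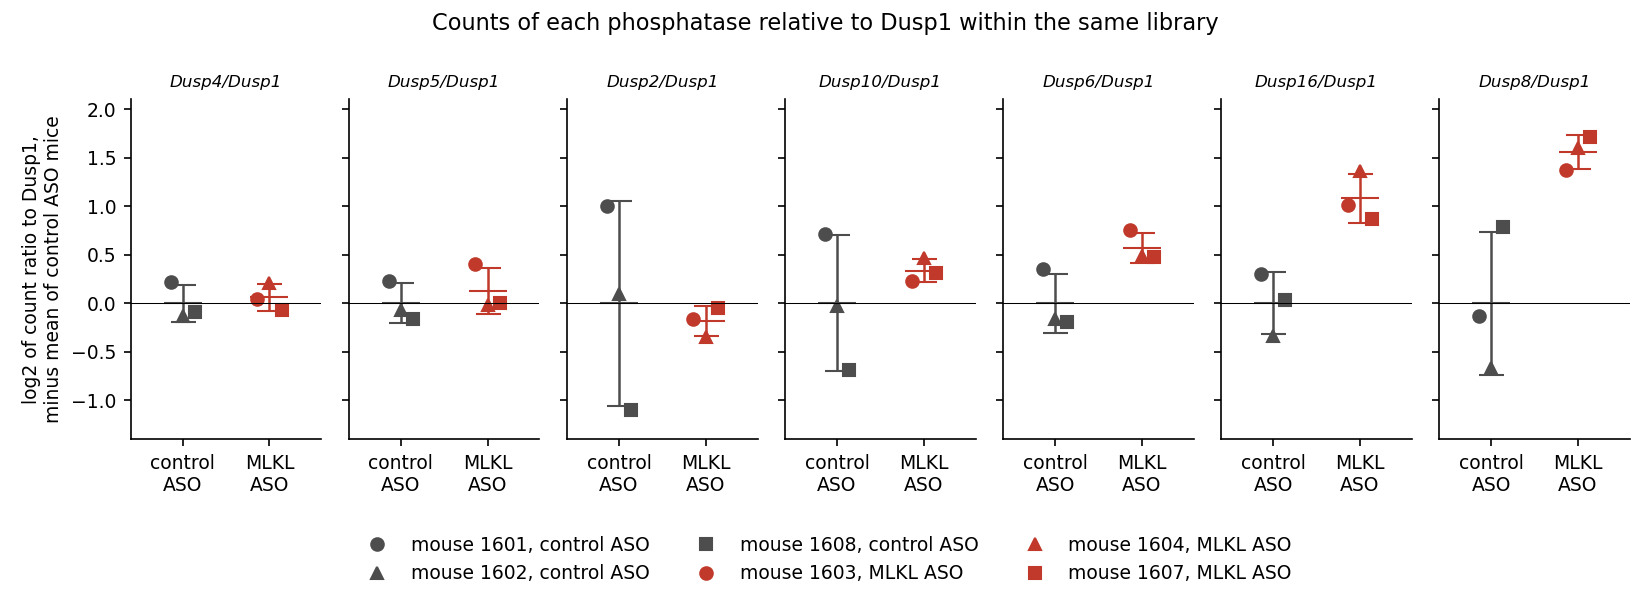
Log2 ratio of the counts of each phosphatase to those of Dusp1 in the same library, minus the mean ratio of the control ASO mice (vertical axis), with 1 point per mouse, lines at the group mean and bars of 1 SD. Ratios of Dusp6, Dusp16 and Dusp8 are separate between the groups, by 0.57, 1.08 and 1.56 on average, and those of Dusp2, Dusp4, Dusp5 and Dusp10 overlap. Dusp1 itself was lower in MLKL ASO mice, which enters every ratio.

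Markers of lymphocytes moved with the grouping. The geometric mean of 20 B, T and NK cell markers was 85.96, 46.48 and 37.86 CPM in control mice 1601, 1602 and 1608 and 27.38, 29.01 and 32.01 CPM in mice 1603, 1604 and 1607, so that the groups did not overlap. All 12 T and NK cell markers and all 8 B cell markers had a log2 fold change below 0. The T and NK cell markers summed to 310 to 753 CPM with the control ASO and 213 to 279 CPM with the MLKL ASO, and the B cell markers to 988 to 2252 and 710 to 1137 CPM. Dusp2 and Dusp10 were highest in mouse 1601, and Dusp2 and Dusp10 were next highest in mouse 1602, the mice with the highest marker levels. Control mouse 1608 had a marker level above every MLKL ASO mouse, but the lowest Dusp2 (6.41 CPM) and Dusp10 (16.6 CPM) of all 6 mice. With the marker level as a covariate the log2 fold change of Dusp2 was 0.34 (edgeR adjusted p = 0.772) and that of Dusp10 was 0.50 (edgeR adjusted p = 0.497). Dusp1, Dusp4 and Dusp5 remained below 0 in that fit, at -0.72, -0.44 and -0.36, and Dusp16 above 0, at 0.61. Dendritic cell markers were below 0 in 7 of 8, and 3 of 8 were lower without overlap, against 9.71% of all genes. Their sums were 413 to 656 CPM with the control ASO and 297 to 363 CPM with the MLKL ASO. The separation of these sums rested on Ccr7, their largest part, which measured 322 ± 141 and 171 ± 34.7 CPM. Plasma cell markers were below 0 in 6 of 6, with a median of -0.47. Erythroid markers were above 0 in 8 of 8, with a median of 0.84, and summed to 635 to 1548 CPM with the control ASO and 985 to 2244 CPM with the MLKL ASO. Megakaryocyte markers were above 0 in 8 of 8, with a median of 1.04, and summed to 100.5 CPM in control mouse 1608, 1061 and 1464 CPM in the other control mice and 1316 to 2734 CPM with the MLKL ASO. Of all counts, globin transcripts took 4.77% to 11.7% under the control ASO and 7.17% to 15.1% under the MLKL ASO. The part of these other markers in the phosphatase levels was not tested. As the lymphocyte marker level also separated the groups, covariate and treatment were partly entangled in this fit of 6 mice.

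**Figure D4:**
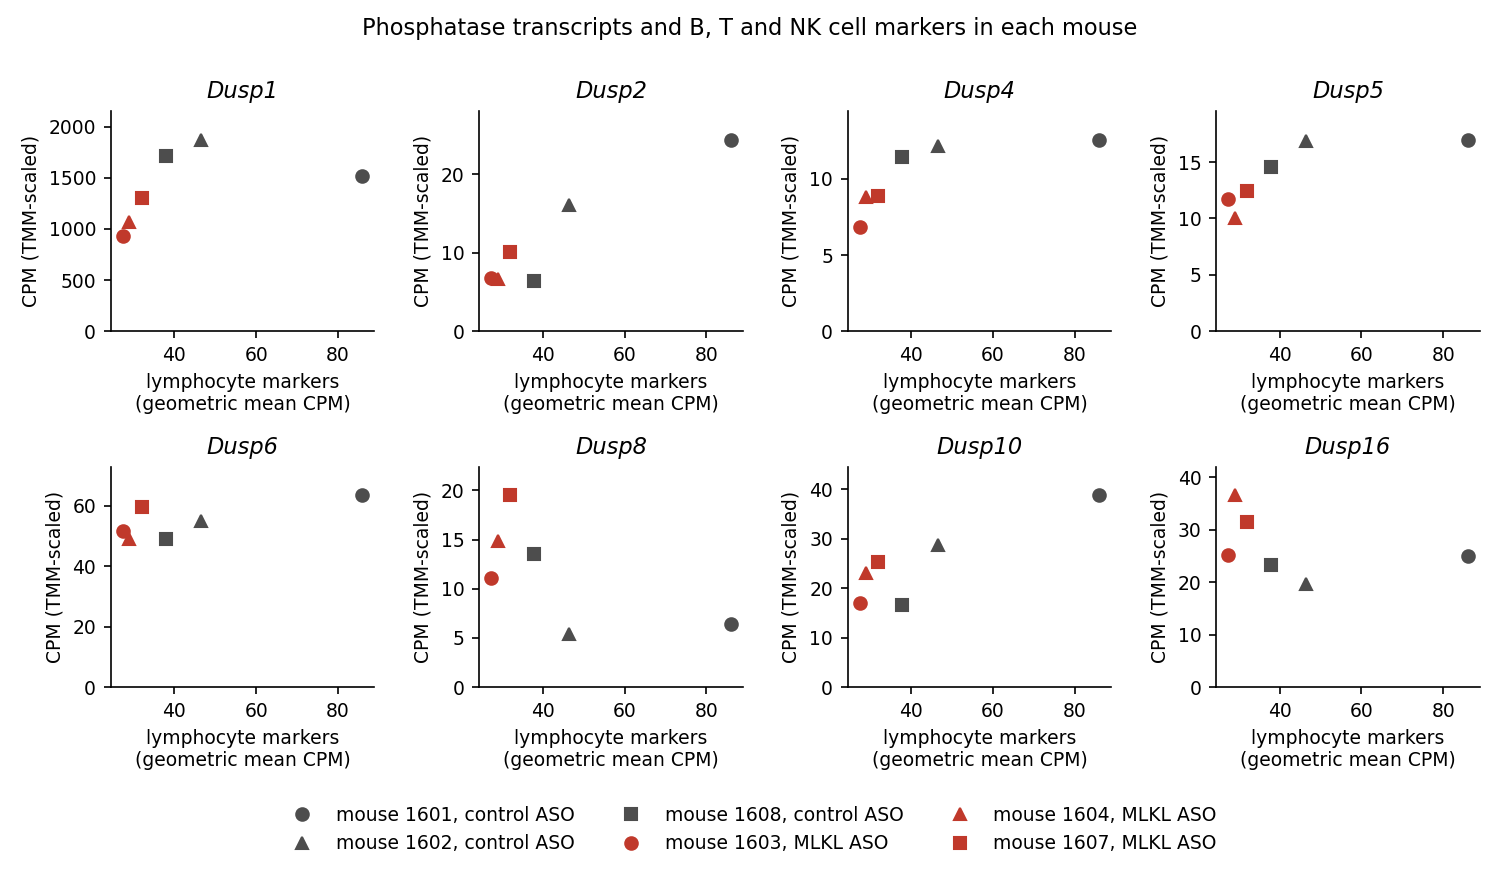
CPM of each phosphatase (vertical axis, from 0) against the geometric mean CPM of 20 B, T and NK cell markers (horizontal axis), 1 point per mouse. Control mouse 1601 has the highest marker level, 85.96 CPM, and the highest Dusp2 and Dusp10, while all MLKL ASO mice lie at or below a marker level of 32.01 CPM. Control mouse 1608, at a marker level of 37.86 CPM, has the lowest Dusp2 and Dusp10.

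The other genes of the MAP kinase pathways were taken from 10 lists with 101 genes, of which 94 were tested. None passed edgeR's adjusted threshold in either direction (0 lower and 0 higher), while 15 were lower and 4 higher at an unadjusted p under 0.05, or 16.0% and 4.26% against 6.96% and 4.89% of all genes. DESeq2 placed 3 of 94 lower and 1 of 94 higher past the threshold, against 1.48% and 1.14% of all genes. There limma-voom with sample weights placed 0, against 13 lower and 9 higher of 19745 genes. The median log2 fold change over the 94 was -0.17.

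The immediate early genes, which share with the inducible phosphatases a rapid response to MAP kinase activity, were below 0 in 11 of 11 cases, with a median log2 fold change of -0.67 (-0.44 without mouse 1603). Junb, an AP-1 subunit, measured 1774 ± 345 CPM with the control ASO and 691 ± 71.8 CPM with the MLKL ASO (edgeR adjusted p = 0.109), and Ier2 744 ± 77.2 and 419 ± 39.7 CPM (edgeR adjusted p = 0.145). DESeq2 placed Junb, Ier2 and Nr4a1 past the threshold as lower, or 3 of 11, against 1.48% of all genes. Among 10 transcripts induced through ERK, 8 were below 0, with a median of -0.37 (-0.62 without mouse 1607, -0.22 without mouse 1603 and -0.21 with the lymphocyte marker covariate). Those below 0 numbered 9 without mouse 1602, 6 without mouse 1601 and 6 with the covariate. Among those with at least 1 CPM in 3 libraries, 6 were below 0. Egr2, a zinc finger factor, measured 53.1 ± 14.9 and 29.1 ± 9.83 CPM (edgeR adjusted p = 0.370). Ccnd1, cyclin D1, had the opposite sign, at 127 ± 8.09 and 199 ± 46.3 CPM (edgeR adjusted p = 0.327). Sprouty and Spred genes, inhibitors of the ERK pathway that are themselves induced by it, did not share the sign of the immediate early genes: 2 of 6 were below 0, with a median of 0.17 (0.0054 without mouse 1601, 0.10 without mouse 1603 and 0.11 without mouse 1607). Spred1 measured 23.1 ± 4.77 and 28.1 ± 4.08 CPM and Spred2 2.24 ± 0.563 and 2.77 ± 0.525 CPM, both with overlap between the groups. The number below 0 was 1 of 6 without mouse 1602 or mouse 1608, and 6 of 6, with a median of -0.21, with the lymphocyte marker covariate.

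Among other MAP kinase phosphatases, 4 of 5 were below 0 and Dusp7 above, and 2 of 3 were below 0 among those with at least 1 CPM in 3 libraries. Dusp7, the closest relative of Dusp6 among cytoplasmic ERK phosphatases, measured 14.6 ± 2.22 CPM with the control ASO and 20.5 ± 3.75 CPM with the MLKL ASO without overlap (edgeR adjusted p = 0.395). Ptprr, a tyrosine phosphatase of ERK, measured 14.2 ± 2.30 and 9.79 ± 1.81 CPM, also without overlap (edgeR adjusted p = 0.386). The atypical dual specificity phosphatases, small enzymes without the kinase-binding domain, were evenly spread, with 7 of 12 below 0 and a median of -0.015, which ran from -0.11 without mouse 1607 to 0.012 without mouse 1604. Dusp28 measured 5.33 ± 0.750 and 2.89 ± 0.851 CPM (edgeR adjusted p = 0.354) and Dusp26 17.9 ± 3.25 and 10.7 ± 2.89 CPM (edgeR adjusted p = 0.367). For both, every MLKL ASO mouse lay below every control mouse.

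The kinases of the cascade itself were below 0 more often than above. MAP kinases were below 0 in 9 of 11 cases with a median of -0.20, MAP kinase kinases in 6 of 7 with a median of -0.25, and MAP3 kinases in 9 of 13 with a median of -0.16. The median of the MAP kinase kinases was -0.12 without mouse 1607, -0.13 without mouse 1602, -0.14 with the lymphocyte marker covariate and -0.15 in limma-voom. That of the MAP3 kinases was -0.11 without mouse 1604, -0.25 with the covariate and -0.056 in limma-voom. Mapk12, p38γ, measured 20.4 ± 5.36 and 12.97 ± 1.56 CPM (edgeR adjusted p = 0.367), and Mapk6, an atypical MAP kinase, 44.3 ± 7.26 and 60.0 ± 13.7 CPM. Map2k1, an activator of ERK, measured 76.1 ± 14.7 and 60.7 ± 4.39 CPM, and Map2k7, an activator of JNK, 30.5 ± 10.96 and 21.8 ± 2.21 CPM. Map3k20, a stress kinase upstream of JNK and p38, measured 24.5 ± 2.44 and 44.7 ± 1.56 CPM, with 21.7, 26.2 and 25.6 CPM in mice 1601, 1602 and 1608 and 43.4, 46.4 and 44.3 CPM in mice 1603, 1604 and 1607. It had an edgeR adjusted p of 0.128. Of the 94 pathway genes it was the 1 that DESeq2 placed past the threshold as higher, against 1.14% of all genes. Ras genes and adaptors were below 0 in 4 of 10 cases, with Nras at 182 ± 12.1 and 223 ± 25.0 CPM and the exchange factor Sos2 at 12.7 ± 0.721 and 16.0 ± 1.54 CPM. Kinases activated by MAP kinases were below 0 in 4 of 9, with Rps6ka5 at 7.12 ± 1.79 and 5.34 ± 0.696 CPM and Mapkapk5 at 10.6 ± 0.968 and 9.12 ± 1.16 CPM. Their number below 0 was 7 of 9 without mouse 1604, 6 of 9 without mouse 1602 or mouse 1608, and 3 of 9 in DESeq2.

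**Figure D5:**
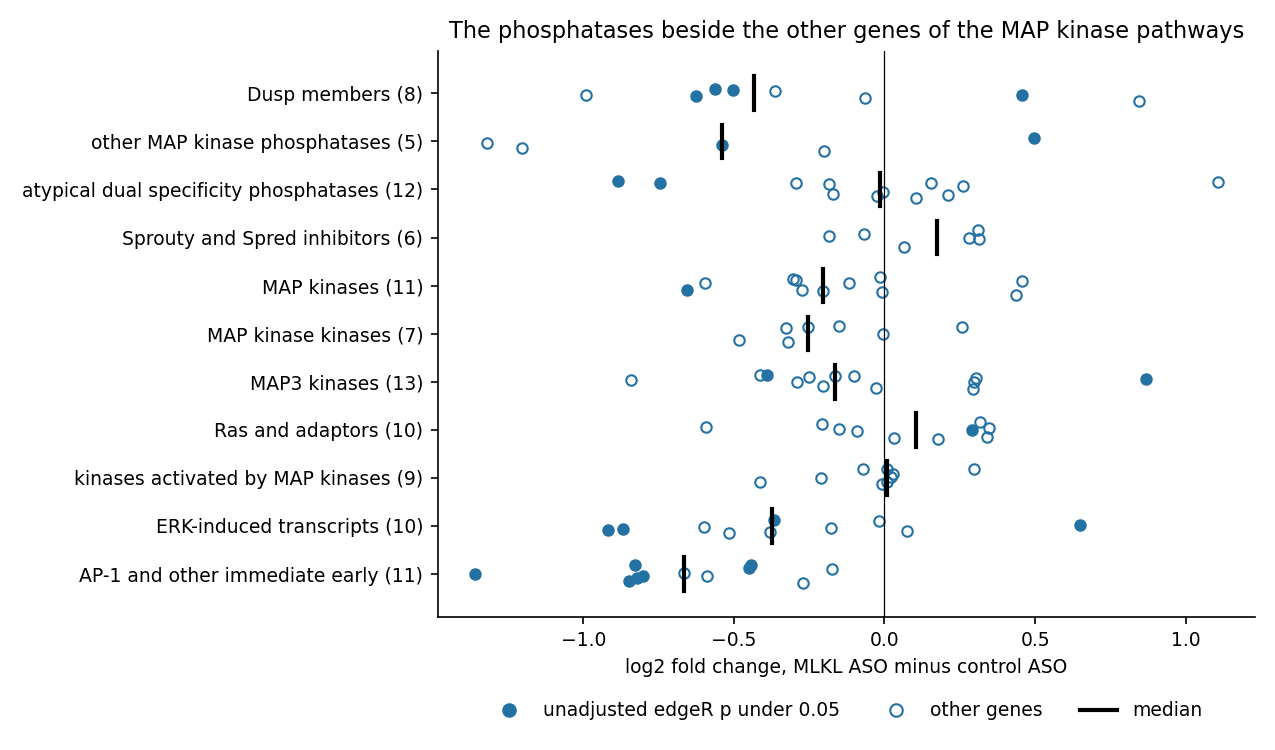
Log2 fold change, MLKL ASO minus control ASO (horizontal axis), of the 8 phosphatases and of the genes in 10 lists of the MAP kinase pathways (rows, with the number tested), 1 point per gene and a bar at each median. Immediate early genes all lie below 0 with a median of -0.67, the 8 phosphatases spread from -0.99 to 0.85 around a median of -0.43, and Sprouty and Spred genes have a median of 0.17.

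Among 11212 other genes with a mean of at least 5 CPM, those with the profile nearest to a member's across the 6 mice were found for the 4 members whose log2 CPM spanned at least 1. As the smallest of 11212 differences over 6 mice, the values below were bound to be small. Nearest to Dusp1 were Ptprr, Zfp707 and Gadd45b, with root mean square differences of 0.069, 0.082 and 0.089 on the log2 scale. Gadd45b, a stress-induced regulator of MAP3 kinase activity, measured 59.5 ± 1.33 CPM with the control ASO and 36.9 ± 7.77 CPM with the MLKL ASO. Nearest to Dusp2 were Il4i1, Cyp4f18 and Tnfrsf13b, at 0.12, 0.15 and 0.16. Tnfrsf13b is a receptor of B cells, and it measured 67.8 ± 35.2 and 38.9 ± 5.87 CPM. Nearest to Dusp10 were Pim1, Neurl3 and the B cell surface gene Cd72, at 0.060, 0.083 and 0.087. Nearest to Dusp8 were Tmem26, Rapgef5 and Creb5, at 0.15, 0.22 and 0.23.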

How the data were processed

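RNA of splenic endothelial cells was sequenced in 3 control ASO and 3 MLKL ASO mice, grouped by their titles. Per the submitters' processing notes, the tools were fastp 0.20.1, Salmon 1.3.0 and DESeq2, and the sources used here name no genome build. The authors deposited estimated counts per gene symbol (expected counts), of which 69.3% are not whole. Per the file headers, the authors' deposited DESeq2 table holds a mean normalised count (a signal), a log2 fold change with its standard error, a Wald score, and p-values with adjusted values. Its direction was taken from a Pearson r of 0.977 across 19728 genes, which are not independent replicates, with the values computed here. Rows without a symbol, or with a symbol on several rows, were left out of it.

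Estimated counts, rounded to whole numbers, went into edgeR 4.0.16 under R 4.3.3 (default expression filter, TMM, quasi-likelihood test, two-sided, Benjamini-Hochberg adjustment over all genes, threshold 0.05). DESeq2 1.42.0 and limma 3.58.1 were alternatives, beside other scalings, count filters, robust fitting, a lymphocyte marker covariate and leaving out each mouse. Values are mean ± SD over mice. Log2 CPM used a prior count of 2. The precision of a level is that of 3 mice. The edgeR and DESeq2 tests were checked on simulated data.

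The members and gene lists were chosen with earlier results of these data known. The 8 members were named whatever their result, as were Mlkl and 2 endothelial genes, then the 2 genes with the smallest unadjusted p in each pathway list and the 3 nearest profiles of members spanning at least 1 on the log2 scale. Genes outside this rule are named for a count of 5 or fewer (Nr4a1) or as the largest part of a sum (Ccr7). One gene that the rule names is not reported here.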

Additional observations from a re-analysis of the deposited data

How the results depend on the processing

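Over all genes, edgeR called 1 gene higher and 1 lower with TMM scaling. It called 2 and 2 with upper quartile scaling, 5 and 4 with library totals only, and 0 and 0 with the lymphocyte marker covariate. DESeq2 called 224 and 291, and limma-voom with sample weights 9 and 13. Leaving out each mouse gave 0 to 10 higher and 0 to 9 lower. Of the 8 phosphatases, 1 passed the threshold with DESeq2 (Dusp1, log2 fold change -0.62, adjusted p = 0.0402), and 0 passed under the other alternatives run. With the covariate, 3 members lay below 0, their median was 0.28, and the sign turned for Dusp2 (0.34), Dusp6 (0.22) and Dusp10 (0.50). Leaving out each mouse moved Dusp6 between -0.15 (mouse 1607) and 0.020 (mouse 1601), where its sign turned. The cause was not tested. Dusp1, Dusp4, Dusp5, Dusp8 and Dusp16 kept their sign under all 15 alternatives. No paired analysis was possible because the mouse numbers do not recur between the groups. With 3 mice against 3, an exact two-sided permutation test cannot go below p = 0.1, and the count model rests on 3 mice in each group. The effect of sequencing depth was not tested.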
